A study of Homo sapiens with 6 samples.

Results

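22Rv1 cells, a prostate carcinoma epithelial cell line, that had survived 6 weeks of phleomycin (6WP) were compared with the parental cells (WT) over every gene that could be tested, and the functions of the genes that moved were described beyond those shown by the study. The WT libraries are from untreated cells taken at week 0. 6WP cells received 1 µg/ml of phleomycin, a drug that breaks DNA, daily on week days for 6 weeks. Age matched (AM) cells had been kept in culture for 6 weeks without the drug and stand beside both groups below. All groups are the same cell line, labelled as genotype WT, and each holds 2 libraries that the labels call biological replicates. The labels do not say whether clones were picked, and a 6WP library is read here as the surviving population of its culture. The count table held 29804 gene symbols, of which 14672 had enough reads to be tested. Genes named in the figures, tables or text of the publication are termed displayed genes. They were set aside, which left 14577 tested genes.

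A cell that meets repeated DNA breaks can arrest, die or go on dividing, and the amounts of its messenger RNAs reflect several programs that run side by side. The integrated stress response slows general translation and raises genes for amino acid supply and tRNA charging, while the unfolded protein response sets the level of chaperones in the endoplasmic reticulum (ER), the compartment where secreted proteins fold. Sterol synthesis is set by the sterol content of the ER membrane, and prostate carcinoma cells can take on neuroendocrine features, that is, genes of nerve-like secretory cells. RNA-seq of a culture measures the mean over its cells, so that fewer cells of a kind and less RNA per cell cannot be told apart.

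Library totals lay between 21222201 and 35311945 counts, and the floor of 3 counts corresponded to between 0.0850 and 0.141 CPM, the counts scaled to a common library size with TMM factors. These floors cover counting error only. The 6WP libraries stood farther apart than those of the other groups, with a median absolute difference between replicates of 0.278 on the log2 scale against 0.121 for WT and 0.129 for AM. More than 1 log2 separated the libraries for 852 tested genes in 6WP, 226 in WT and 247 in AM. All 11 markers of the line, such as KLK3, HOXB13 and EPCAM, were present in every library, with a summed level between 2570 and 4200 CPM, and 0 of them were called. The 9 leukocyte markers summed to between 3.35 and 4.05 CPM, with 2 tested, 4 at 0 in every library and 0 called, and the 6 endothelial markers to at most 0.184 CPM, with 0 tested.

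In the comparison of 6WP with WT cells, 440 of 14672 genes passed an adjusted p-value of 0.05 in edgeR's quasi-likelihood test, which is 3.00% of the genes tested. Of these, 239 were higher (1.63%) and 201 lower (1.37%) in 6WP. Genes that pass this test are termed called. In all 440 the 6WP and WT libraries did not overlap, which was the case for 50.7% of all tested genes. Among the called genes, 358 are not displayed genes, 187 of them higher and 171 lower, and their median absolute change was 0.905 on the log2 scale. The median change of all tested genes was 0.01.

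To find the rises and falls that were borne by both 6WP libraries, a called gene was counted as held when the gap between the nearest 6WP and WT libraries was larger than the difference between the 6WP libraries. This was so for 427 of the 440 genes, 228 higher and 199 lower, while a gap of this size was found in 23.7% of all tested genes. The 6WP libraries lay on opposite sides of the WT mean for 5143 tested genes (35.1%) and for 0 called genes. The test itself favours genes with close replicates, so that the called genes are not a sample of all genes in this respect. The number of calls rested on the single libraries. It was 3752 and 3870 without the first and the second 6WP library, 100 and 102 without the first and the second AM library, which add to the estimate of the spread, and 0 without the first or the second WT library. In the latter fits 1456 and 1900 genes had an unadjusted p under 0.05 in edgeR, and DESeq2 was not run on these subsets.

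**Figure D1:**
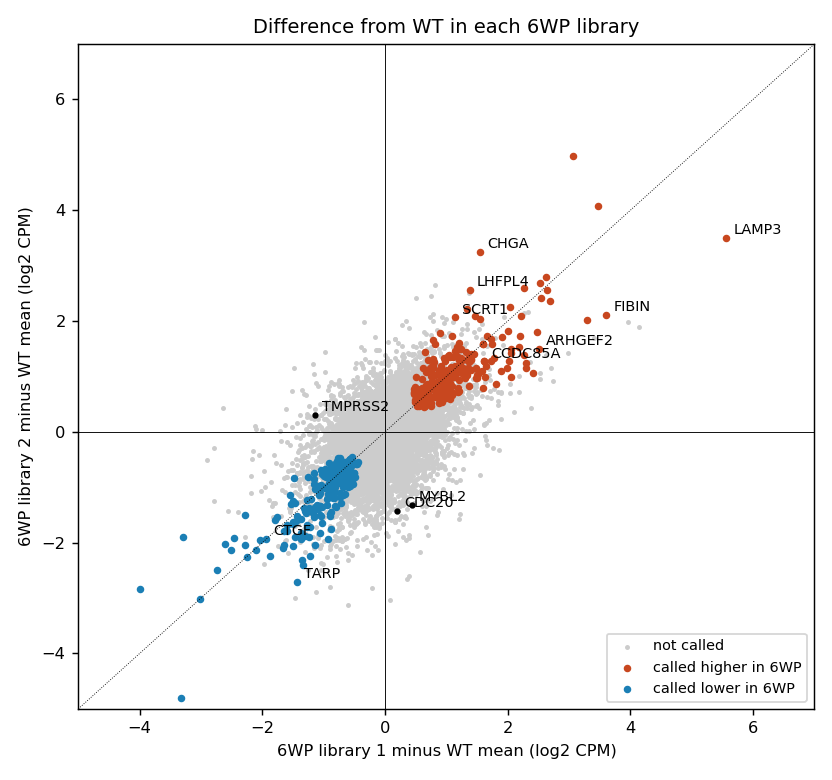
Each point is a tested gene, with the difference of 6WP library 1 from the WT mean on the x axis and that of library 2 on the y axis (both log2 CPM), and the dotted line marks equal differences. The 239 genes called higher (red) and the 201 called lower (blue) lie in the quadrants where both libraries differ from WT in the same direction, whereas CDC20, MYBL2 and TMPRSS2, which were not called, lie in quadrants where the libraries differ in direction.

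Among the largest rises outside the displayed genes that held in both 6WP libraries were a lysosomal membrane protein, regulators of the cytoskeleton and of transcription, and enzymes. LAMP3, a lysosome-associated membrane protein, had 0.759 and 0.551 CPM in the WT libraries, 1.81 and 3.33 CPM in AM, and 34.2 and 8.11 CPM in 6WP. It rose by 5.0 ± 0.77 log2 (SE, adjusted p = 0.0192), with the first 6WP library well above the second and both above every other library. FIBIN, a secreted protein, had 1.52 and 1.19 CPM in WT and 17.3 and 6.06 CPM in 6WP, a rise of 3.10 ± 0.51 log2 (adjusted p = 0.0249). ARHGEF2, an exchange factor that activates the GTPase RhoA and binds microtubules, went from 46.8 and 50.3 CPM in WT to 276 and 137 CPM in 6WP, while the AM libraries had 52.0 and 64.7 CPM. Its change was 2.09 ± 0.29 log2 (adjusted p = 0.0148), and it was the most abundant of the 15 largest rises in 6WP library 1. FAM129A (now NIBAN1), a stress-induced protein linked to translation control, lay at 64.6 and 63.6 CPM in WT and at 253 and 143 CPM in 6WP, a rise of 1.63 ± 0.23 log2 (adjusted p = 0.0159).

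In other genes the second 6WP library was the higher. SCRT1, a repressor of the Snail family found in neurons, had 11.3 and 13.6 CPM in WT, 10.5 and 11.4 CPM in AM, and 27.4 and 52.4 CPM in 6WP (1.68 ± 0.28 log2, adjusted p = 0.0270). LHFPL4, which helps to cluster inhibitory receptors at synapses, had 3.21 and 3.31 CPM in WT, 7.62 and 5.59 CPM in AM and 8.61 and 19.6 CPM in 6WP (2.11 ± 0.38 log2, adjusted p = 0.0329). Its first 6WP library was near AM, and its difference between 6WP and AM was 1.1 log2 (adjusted p = 0.0614 in edgeR). The 6WP libraries were close together for 3 further genes. BCAT1, the cytosolic aminotransferase of the branched-chain amino acids, went from 7.81 and 5.97 CPM in WT to 18.7 and 18.3 CPM in 6WP, with 4.87 and 4.53 CPM in AM (1.42 ± 0.18 log2, adjusted p = 0.00899). CCDC85A, a coiled-coil protein, had 5.45 and 5.19 CPM in WT, 2.80 and 3.09 CPM in AM, and 16.3 and 12.9 CPM in 6WP (1.46 ± 0.19 log2, adjusted p = 0.0107). SLMO1 (now PRELID3A), a mitochondrial lipid transfer protein, rose by 1.43 ± 0.25 log2 (adjusted p = 0.0294).

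The other members of the 15 largest rises were BEST1, AOX1, LARP6, LOC100272217, OBSL1 and TRIM67, with changes between 1.46 for TRIM67 and 2.03 for BEST1. AOX1, aldehyde oxidase, had 6.56 and 5.56 CPM in WT, 29.3 and 15.9 CPM in 6WP, and also 15.8 and 22.1 CPM in AM. LARP6, which binds the messenger RNAs of type I collagen, had 7.37 and 8.41 CPM in WT, 6.80 and 9.24 CPM in AM and 39.0 and 18.8 CPM in 6WP. Exons of BEST1 overlap those of FTH1 on the opposite strand, and exons of LARP6, SCRT1, ARHGEF2, OBSL1, CCDC85A and BCAT1 also overlap another gene on the opposite strand, so that their counts depend on a strand setting that is not given in the sources used here. Of the 15 rises, 10 were also called higher in 6WP than in AM, where 11.7% of all tested genes were called higher. Only 3 of the 15 were called higher in AM than in WT (7.74% of all tested genes) and 1, CCDC85A, was called lower (9.93%). These comparisons share the 6WP or the WT libraries with the main one, so that their counts are not independent of it.

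The 15 largest falls held in both 6WP libraries were genes of varied function. CTGF (now CCN2), a matricellular growth factor and YAP target, had 11.7 and 18.2 CPM in WT, 1.51 and 1.24 CPM in AM, and 3.76 and 3.77 CPM in 6WP. Its change was -1.99 ± 0.25 log2 (SE, adjusted p = 0.00899), and both 6WP libraries lay between the WT and the AM libraries. ITGA7, an integrin chain that binds laminin, was the most abundant of these genes, with 245 and 256 CPM in WT, 42.2 and 40.7 CPM in AM, and 120 and 70.0 CPM in 6WP (-1.39 ± 0.22 log2, adjusted p = 0.0216). CADM1, an adhesion molecule of the immunoglobulin superfamily, had 17.1 and 16.2 CPM in WT, 2.93 and 4.15 CPM in AM and 7.09 and 3.45 CPM in 6WP (-1.66 ± 0.32 log2, adjusted p = 0.0390). BTN3A1, a butyrophilin that presents phosphoantigens to γδ T cells, went from 8.39 and 8.68 CPM in WT to 3.07 and 2.75 CPM in 6WP, with 1.64 and 1.12 CPM in AM. In these 4 genes the mean of the AM libraries was farther from WT than that of the 6WP libraries.

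SLFN11, a protein that blocks stalled replication forks and is known for sensitivity to DNA-damaging drugs, had 13.8 and 11.3 CPM in WT, 3.75 and 3.53 CPM in AM, and 4.77 and 3.45 CPM in 6WP. It fell by 1.61 ± 0.22 log2 (adjusted p = 0.0132), and its difference between 6WP and AM was 0.18 log2 (adjusted p = 0.604). SOX5, a transcription factor, showed a similar order, with 7.72 and 6.66 CPM in WT, 1.85 and 2.33 CPM in AM and 2.21 and 1.62 CPM in 6WP (-1.91 ± 0.25 log2, adjusted p = 0.0120). Of the 15 largest falls, 10 were called lower in AM than in WT, and 4 were called lower and 3 higher in 6WP than in AM (9.68% and 11.7% of all tested genes).

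The 4 falls that were also lower than in AM were STARD4, FA2H, CCKBR and TARP. STARD4, which carries cholesterol between membranes, had 39.9 and 39.6 CPM in WT, 61.4 and 49.3 CPM in AM, and 16.7 and 10.5 CPM in 6WP (-1.54 ± 0.22 log2, adjusted p = 0.0148). FA2H, the fatty acid 2-hydroxylase of sphingolipids, had 4.15 and 3.17 CPM in WT, 3.92 and 3.36 CPM in AM and 1.37 and 0.670 CPM in 6WP (-1.84 ± 0.36 log2, adjusted p = 0.0399). CCKBR, a receptor for gastrin and cholecystokinin, had 5.45 and 5.15 CPM in WT and 2.35 and 1.23 CPM in 6WP. In each of them the 6WP libraries lay below all 4 untreated libraries. TARP, a transcript from the T cell receptor gamma locus that is made in prostate cells, had 22.3 and 24.5 CPM in WT, 14.8 and 18.6 CPM in AM and 8.61 and 3.52 CPM in 6WP, and its exons overlap TRGC1 on the same strand, so that its counts are uncertain. The remaining falls among the 15 were SFT2D2, GPR98, ABCC9, ST8SIA4 and FRK, between -1.67 for SFT2D2 and -1.39 for FRK. Exons of ITGA7 overlap BLOC1S1 and METTL7B on the opposite strand, and those of CTGF, SFT2D2, GPR98, STARD4 and ABCC9 also overlap another gene there, so that the limit of the unknown strand setting holds for these 6 falls too. All 30 largest rises and falls kept their direction in each of the 14 alternatives run, but most of their calls depended on libraries other than the 6WP ones. The fit to only the WT and 6WP libraries lost 22 of the 30 calls, leaving out the first or the second AM library lost 20 and 19, and leaving out the first or the second WT library lost all 30. Of the 110 genes taken by the naming rule, 88 lost the call in the fit without AM.

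**Figure D2:**
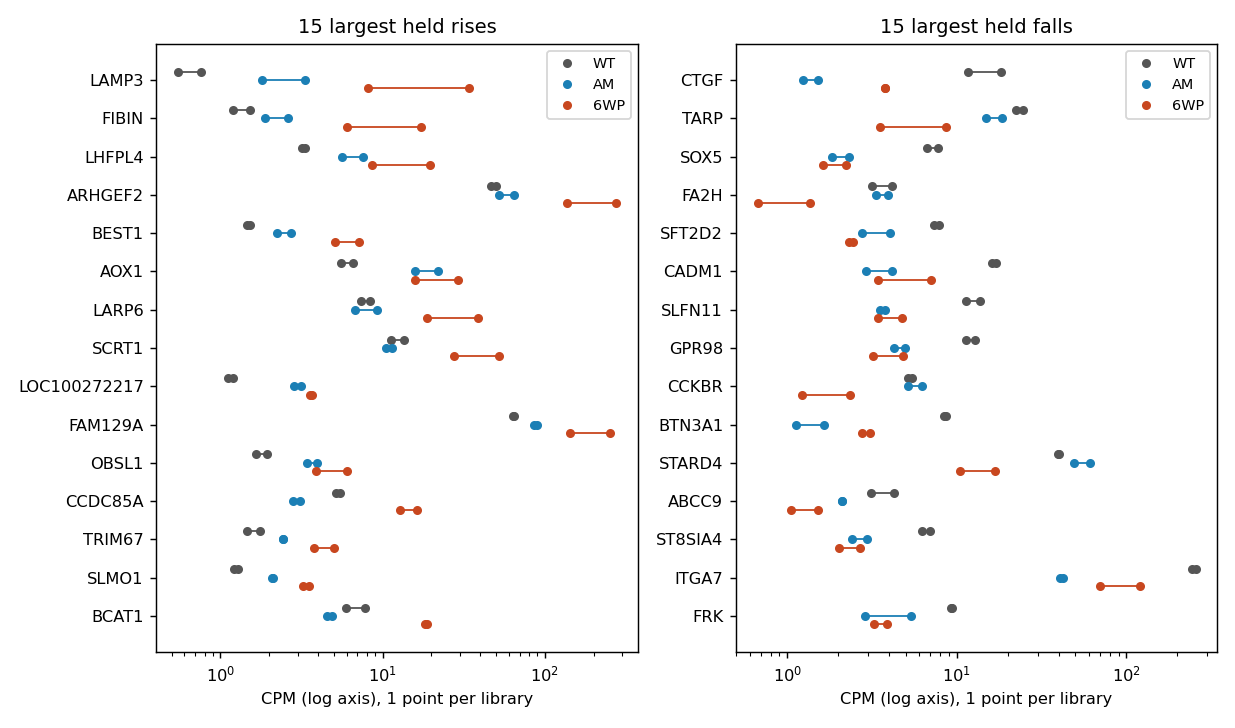
CPM on a log axis for the 15 largest held rises (left) and falls (right), with 1 point per library and a line joining the 2 libraries of WT (grey), AM (blue) and 6WP (red). The red and grey points do not overlap in any of the 30 genes, while for CTGF, BTN3A1 and ITGA7 the blue points lie below the red ones.

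Function was then read over 79 gene lists and symbol families with 3653 tested genes, of which 69 held at least 10 tested genes. No gene was called in 17 of the 69, and the medians of the 6WP libraries lay on opposite sides of the WT mean in 25. At least 1 gene was called in the other 52, and 107 of the 358 called genes outside the displayed ones belonged to any list or family, so that most calls lie outside the functions described here.

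**Figure D3:**
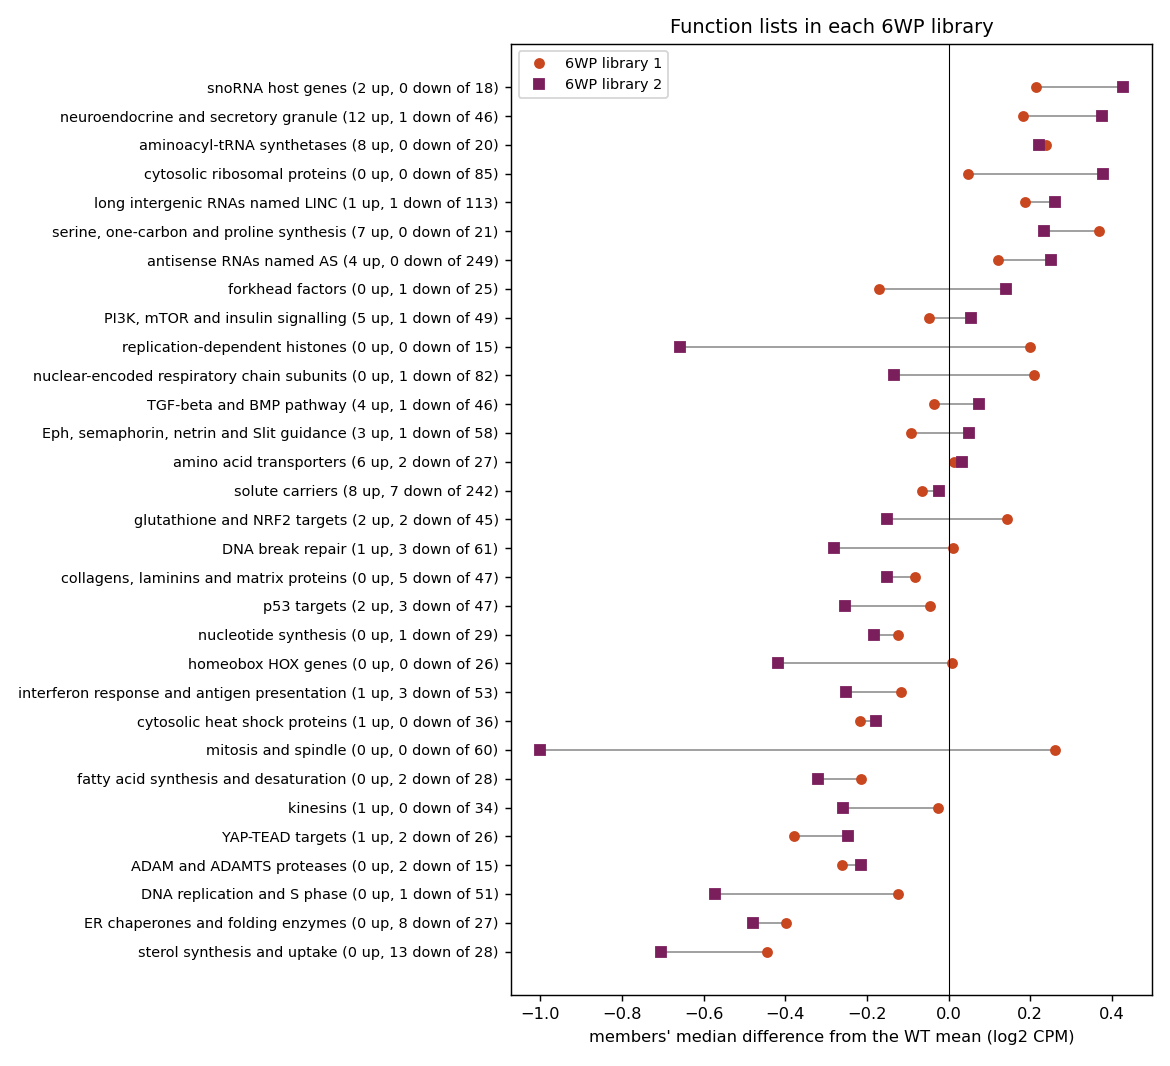
Median difference from the WT mean (log2 CPM) over the tested members of each list in 6WP library 1 (circles) and library 2 (squares), with the number of members called higher and lower. The lists drawn have at least 15 tested genes and a clear median, at least 4 calls or a wide distance between the libraries, and they run from sterol synthesis (-0.45 and -0.70) at the bottom to the snoRNA host genes (0.21 and 0.43) at the top, with the mitosis list split between 0.26 and -1.0.

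Some genes for tRNA charging rose in 6WP, and several of them were as high in AM. Of 20 tested cytosolic aminoacyl-tRNA synthetases, which load amino acids onto tRNAs, 8 were called higher, all of them held, and 0 lower. The median change over the 20 was 0.24 log2, with 0.24 in library 1 and 0.22 in library 2, against 0.01 over all genes. The median of the list was 0.38 for AM against WT and -0.06 for 6WP against AM, comparisons that share libraries with the first, and 3 of the 8 rises (SARS, CARS and YARS) were also called higher in 6WP than in AM. CARS had 69.5 and 64.2 CPM in WT, 90.4 and 96.1 CPM in AM and 130 and 119 CPM in 6WP (0.90 ± 0.11 log2, adjusted p = 0.00847), and YARS had 171 and 161 CPM in WT, 194 and 200 CPM in AM and 286 and 300 CPM in 6WP (0.82 ± 0.10 log2, adjusted p = 0.00850). WARS had 102 and 99.5 CPM in WT and 214 and 159 CPM in 6WP, and the AM libraries were as high, with 204 and 205 CPM. The other rises were AARS, GARS, NARS and TARS with changes between 0.52 and 0.75, and SARS, a displayed gene. The other 12 synthetases were not called.

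The supply of amino acids showed calls in both directions. In serine, one-carbon and proline synthesis 7 of 21 tested genes rose, all held, and 0 fell, and 4 of the 7 are displayed genes. The list median was 0.20 log2 for 6WP against WT, 0.39 for AM against WT and 0.09 for 6WP against AM. PHGDH, the entry enzyme of serine synthesis, had 169 and 167 CPM in WT, 199 and 240 CPM in AM and 415 and 328 CPM in 6WP (1.15 ± 0.15 log2, adjusted p = 0.00966), SHMT2, the mitochondrial serine hydroxymethyltransferase, had 568 and 559 CPM in WT, 627 and 682 CPM in AM and 1030 and 803 CPM in 6WP, and PYCR1, of proline synthesis, had 196 and 206 CPM in WT, 279 and 309 CPM in AM and 366 and 317 CPM in 6WP (6WP against AM, adjusted p = 0.216 in edgeR). Of 27 amino acid transporters 6 rose, 4 of them displayed genes, and 2 fell, with a median of -0.02. SLC1A5, which takes up glutamine, went from 219 and 210 CPM to 393 and 464 CPM, and SLC43A1, a carrier of large neutral amino acids, from 16.6 CPM in both WT libraries to 34.4 and 43.3 CPM, with 33.3 and 35.2 CPM in AM. The taurine transporter SLC6A6 fell from 58.3 and 60.8 CPM to 35.3 and 35.4 CPM, with 33.0 and 33.4 CPM in AM. The lysosomal carrier SLC36A1 fell from 39.8 and 39.4 CPM to 24.8 and 27.1 CPM, with 30.1 and 30.5 CPM in AM. Among all 242 solute carriers 8 rose and 7 fell, beside 1.63% called higher and 1.37% called lower over all tested genes.

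The promoters of the synthetases are described because 8 of them rose and several carry the same short motif, which is shown for 3 of them. In the window from 250 bases before to 50 bases after the start of the RefSeq gene (GRCh38.p14), the letters TGATGNAA, the core to which C/EBP and ATF factors are known to bind, were searched on both strands. They occurred in 1.65% of the 11253 promoters that could be matched to a tested gene, in 9 of 187 promoters of genes called higher (4.81%) and in 1 of 155 of genes called lower (0.645%). Of the 8 synthetases that rose, 5 had a promoter in the table, and 4 of these held the letters, as did BCAT1. Of all 20 tested synthetases, 12 had a promoter in the table and 5 of these held the letters, among them IARS, which was not called (0.19 log2, adjusted p = 0.356). The synthetases shown were chosen because they rose and hold the letters. The promoter of CALR, an ER chaperone that fell, is shown for the longer ER stress element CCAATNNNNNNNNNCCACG, which occurred in 14 promoters of tested genes (0.124%), in 4 of those called lower (CALR, TRIM5, HSPA5 and HSP90B1) and in 0 of those called higher. Capitals mark the match, which reads as the reverse complement where it lies on the other strand. The windows are chr11:3057374-3057673 for CARS, chr18:57621787-57622086 for NARS and chr12:24949052-24949351 for BCAT1, all on the minus strand, and chr5:33440715-33441014 for TARS and chr19:12938359-12938658 for CALR on the plus strand.
CARS: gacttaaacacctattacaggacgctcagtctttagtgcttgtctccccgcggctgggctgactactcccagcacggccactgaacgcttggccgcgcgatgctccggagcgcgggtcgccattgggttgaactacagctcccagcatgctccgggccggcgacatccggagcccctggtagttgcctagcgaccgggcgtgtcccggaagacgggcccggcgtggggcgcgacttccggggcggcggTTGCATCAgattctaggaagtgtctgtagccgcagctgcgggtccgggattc
NARS: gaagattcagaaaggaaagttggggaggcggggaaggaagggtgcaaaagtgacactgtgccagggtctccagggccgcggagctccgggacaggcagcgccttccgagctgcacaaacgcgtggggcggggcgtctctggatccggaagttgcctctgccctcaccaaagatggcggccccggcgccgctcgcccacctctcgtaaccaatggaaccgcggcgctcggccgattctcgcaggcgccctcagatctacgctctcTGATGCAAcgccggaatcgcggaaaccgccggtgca
TARS: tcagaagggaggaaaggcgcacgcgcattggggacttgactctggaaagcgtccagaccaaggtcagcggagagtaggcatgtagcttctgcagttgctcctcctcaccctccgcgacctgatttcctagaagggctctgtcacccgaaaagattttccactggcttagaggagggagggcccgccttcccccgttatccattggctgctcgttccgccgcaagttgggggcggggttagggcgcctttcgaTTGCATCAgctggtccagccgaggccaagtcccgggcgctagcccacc
BCAT1: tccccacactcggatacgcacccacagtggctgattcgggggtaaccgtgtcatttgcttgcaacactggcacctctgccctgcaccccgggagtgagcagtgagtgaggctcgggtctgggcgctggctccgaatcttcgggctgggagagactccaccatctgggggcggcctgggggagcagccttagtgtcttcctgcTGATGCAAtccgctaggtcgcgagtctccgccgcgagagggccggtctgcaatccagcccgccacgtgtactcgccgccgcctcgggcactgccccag
CALR: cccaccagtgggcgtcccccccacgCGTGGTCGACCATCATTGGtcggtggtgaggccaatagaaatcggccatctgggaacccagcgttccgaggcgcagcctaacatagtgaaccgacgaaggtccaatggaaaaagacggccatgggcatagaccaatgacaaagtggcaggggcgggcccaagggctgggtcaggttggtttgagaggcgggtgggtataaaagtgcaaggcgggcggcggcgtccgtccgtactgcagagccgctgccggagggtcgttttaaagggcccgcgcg

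A match of letters is a description of these windows and was not tied to binding of any factor, and no match says only that the letters are not in that window. The E-box CACGTG occurred in 10.1% of all matched promoters, in 29 of 187 called higher (15.5%) and in 11 of 155 called lower (7.10%), and the AP-1 letters TGANTCA in 4.29%, 4.81% and 3.87%. CCAAT alone, which is part of the ER stress element, occurred in 36.4%, 35.3% and 38.1%, and in 7 of the 9 matched promoters of sterol genes that fell and 7 of the 8 of ER chaperones that fell. It was also in 15 of the 21 matched promoters of all tested sterol genes (71.4%), so that the share among the falls is near that of the list. For the ER chaperones the whole list was not counted. The sterol element core TCACNCCAC was found in 0 of the 9 windows of sterol genes that fell.

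Neuroendocrine and secretory granule genes also rose, with 12 of 46 tested genes called higher, 11 of them held, and 1 lower, and a median of 0.32 log2 (0.18 in library 1 and 0.38 in library 2). Of the 12, 4 are displayed genes. BEX2, a small adaptor protein of neurons, had 44.6 and 45.7 CPM in WT, 45.4 and 49.9 CPM in AM and 140 and 90.1 CPM in 6WP (1.35 ± 0.20 log2, adjusted p = 0.0162). SYT5, a calcium sensor of exocytosis, had 3.35 and 3.72 CPM in WT, 7.49 and 6.86 CPM in AM and 10.1 and 7.26 CPM in 6WP. The synaptic vesicle protein SYP had 35.0 and 37.9 CPM in WT, 52.8 and 56.8 CPM in AM and 58.5 and 65.3 CPM in 6WP (6WP against AM, adjusted p = 0.305 in edgeR). The granule protein SCG3 had 31.2 and 31.9 CPM in WT, 37.3 and 39.1 CPM in AM and 52.8 and 63.2 CPM in 6WP. For both the 6WP libraries were near each other. CHGA, the granule core protein chromogranin A, was the rise that did not hold. It had 1.43 and 2.21 CPM in WT, 4.48 and 3.80 CPM in AM, and 5.32 and 17.5 CPM in 6WP (2.65 ± 0.54 log2, adjusted p = 0.0450), and the first 6WP library was closer to AM than to the second. CADPS2, which primes granules for release, fell from 29.1 and 24.0 CPM to 15.1 and 10.3 CPM, with 16.4 and 18.1 CPM in AM.

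The largest group of falls was in sterol synthesis and uptake, where 13 of 28 tested genes were called lower, all held, and 0 higher. The median was -0.58 log2, with -0.45 in library 1 and -0.70 in library 2, and 25 of the 28 lay below the WT mean in both 6WP libraries when nothing but direction is counted. Of the 13, 2 are displayed genes. HSD17B7, which acts in cholesterol synthesis and on oestrone, had 25.9 and 28.0 CPM in WT, 38.7 and 31.9 CPM in AM and 12.2 and 10.4 CPM in 6WP (-1.25 ± 0.16 log2, adjusted p = 0.00882). INSIG1, the ER protein that retains the sterol sensor, had 239 and 220 CPM in WT, 308 and 295 CPM in AM and 124 and 80.3 CPM in 6WP (-1.17 ± 0.19 log2, adjusted p = 0.0222). In all 13 genes both 6WP libraries lay below both WT and both AM libraries. Among 28 genes of fatty acid synthesis and desaturation 2 fell, the elongases ELOVL6 and ELOVL7 (-0.65 and -0.62 log2), with a list median of -0.26.

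ER chaperones and folding enzymes fell as well, with 8 of 27 tested genes called lower, 0 higher and all 8 held (median -0.47, with -0.40 and -0.48 in the 6WP libraries). Of the 8, 4 are displayed genes. CALR, the calcium-binding lectin chaperone, had 2130 and 2140 CPM in WT, 3140 and 2950 CPM in AM and 1150 and 1050 CPM in 6WP (-0.96 ± 0.12 log2, adjusted p = 0.00830). SDF2L1, a partner of the Hsp70 chaperone of the ER, had 35.0 and 40.7 CPM in WT, 82.9 and 90.7 CPM in AM and 20.3 and 13.4 CPM in 6WP, and DNAJC3, another co-chaperone, had 149 and 145 CPM in WT, 241 and 220 CPM in AM and 72.0 and 90.3 CPM in 6WP. For these genes AM lay above WT and 6WP below it, and the median of the list was 0.68 log2 for AM against WT. The calls were in the chaperones themselves. Of 28 genes of ER-associated degradation 0 were called, with 6 at an unadjusted p under 0.05 and 3 called by DESeq2, and of 53 genes of the translocon, glycosylation and COPII transport 0 were called, with 13 at an unadjusted p under 0.05 and 2 called by DESeq2. ATP2A2, the pump that fills the ER with calcium, fell from 929 and 935 CPM to 537 and 557 CPM (-0.77 ± 0.11 log2, adjusted p = 0.0137). Its AM libraries had 1120 and 1030 CPM. ITPR2, a channel that releases calcium from the ER, fell from 32.6 and 30.5 CPM to 19.7 and 18.6 CPM. Unlike ATP2A2, ITPR2 was as low in AM, with a mean of 18.4 CPM (6WP against AM, adjusted p = 0.758 in edgeR).

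**Figure D4:**
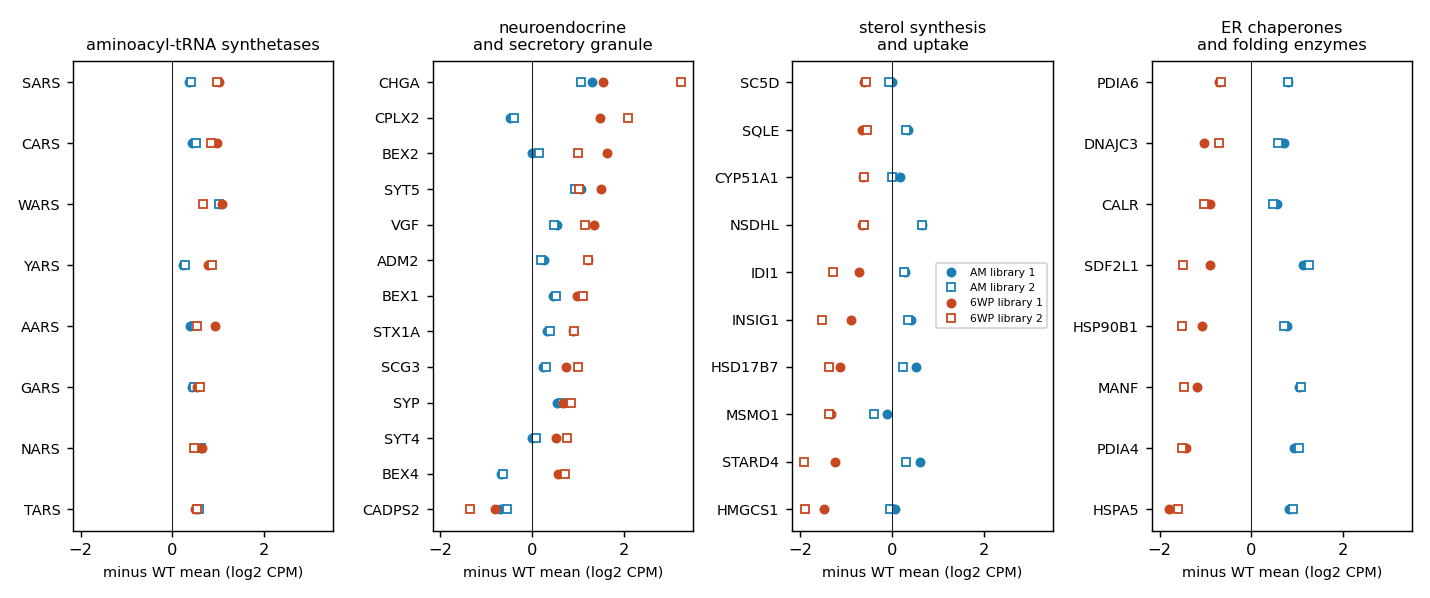
Difference from the WT mean (log2 CPM) of called genes of 4 lists in each AM (blue) and 6WP (red) library, with filled circles for library 1 and open squares for library 2. The red points of the sterol and ER chaperone genes all lie below 0, whereas the blue points of the ER chaperone genes lie above it, and the 6WP libraries are far apart for CHGA.

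Adhesion, matrix and surface genes gave fewer calls than the sterol and ER chaperone genes. The share called over all tested genes was 1.63% higher and 1.37% lower, and the falls among junction and matrix genes were above it. Of 52 junction and adhesion genes 3 fell, which were CADM1, the tight junction protein CLDN1 and the desmosomal protein PKP2, and 0 rose (median -0.10). PKP2 had 18.4 and 19.2 CPM in WT, 11.1 and 12 CPM in AM and 9.94 and 11 CPM in 6WP, while CLDN1 was low throughout, with 2.37 and 2.53 CPM in WT, 0.431 and 0.294 CPM in AM and 0.181 and 0.599 CPM in 6WP. Of 47 collagens, laminins and matrix proteins 5 fell and 0 rose (median -0.14), and 2 of the 5 are the proteoglycans LUM and DCN, both displayed genes. TNC, the matrix glycoprotein tenascin C, had 135 and 123 CPM in WT, 54.3 and 75.5 CPM in AM and 62.2 and 65.9 CPM in 6WP (-1.01 ± 0.16 log2, adjusted p = 0.0215), and COL4A5, a chain of basement membrane collagen, had 59.9 and 55.3 CPM in WT, 22.6 and 20.5 CPM in AM and 29.0 and 33.0 CPM in 6WP. LUM and DCN are also markers of fibroblasts. The 11 fibroblast and smooth muscle markers summed to between 24.4 and 27.5 CPM in WT, between 6.09 and 7.49 CPM in AM and between 6.80 and 11.2 CPM in 6WP, 6 of them could be tested and 2 were at 0 in every library, and their part in the fall of matrix genes was not tested.

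Among 46 integrin and focal adhesion genes ITGA7 and TNS3 fell, and TNS3, a tensin that links integrins to actin, had 46.2 and 43.7 CPM in WT, 18.3 and 21.1 CPM in AM and 21.2 and 21.6 CPM in 6WP. In the list of YAP-TEAD targets, whose 26 tested genes also take in factors of the pathway such as YAP1, CTGF and YAP1 itself fell. YAP1 had 83.8 and 83.9 CPM in WT, 43.6 and 40.3 CPM in AM and 60.9 and 56.4 CPM in 6WP. AJUBA, a LIM protein of the Hippo pathway, rose from 47.4 and 43.4 CPM to 73.3 and 112 CPM (1.03 ± 0.20 log2, adjusted p = 0.0387), with 86.0 and 72.8 CPM in AM. In the guidance list, of 58 genes 3 rose and 1 fell, and EPHB3, an Eph receptor, had 157 and 186 CPM in WT, 466 and 518 CPM in AM and 338 and 415 CPM in 6WP. CDC42EP1, an effector of the GTPase CDC42, was the 1 gene called among 80 of the actin cytoskeleton, with 34.1 and 42.8 CPM in WT, 28.5 and 37.4 CPM in AM and 107 and 74.7 CPM in 6WP (1.24 ± 0.21 log2, adjusted p = 0.0275). Beside these lists, 1.63% of all tested genes were called higher and 1.37% lower. The 1 call among 80 actin genes is below the 3.00% called in total.

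Of 61 genes of DNA break repair, the function closest to the drug's action, 1 rose and 3 fell, with a median of -0.13 log2. Since 1.63% of all tested genes were called higher and 1.37% lower, the 1 rise is at the share over all genes. FANCD2, which is ubiquitinated at blocked forks, had 45.4 and 40.7 CPM in WT, 66.3 and 61.7 CPM in AM and 25.8 and 18.9 CPM in 6WP (-0.95 ± 0.16 log2, adjusted p = 0.0275). FANCB, of the complex that carries out that step, had 4.15 and 4.27 CPM in WT and 1.99 and 1.62 CPM in 6WP, and PRKDC, the kinase of end joining, had 749 and 771 CPM in WT, 840 and 798 CPM in AM and 496 and 492 CPM in 6WP (-0.62 ± 0.10 log2, adjusted p = 0.0249). The 3 falls lay below all untreated libraries. The rise was PARP3, a displayed gene. Of 47 p53 targets 2 rose, 1 of them held, and 3 fell. Among the falls, KITLG, a growth factor for cells with the receptor of stem cell factor, was at 17.7 and 19.0 CPM in WT, 19.3 and 20 CPM in AM and 9.73 and 9.62 CPM in 6WP, and TP53INP1, a stress-induced nuclear protein, at 112 and 109 CPM in WT, 68.8 and 68.6 CPM in AM and 68.1 and 73.3 CPM in 6WP.

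In the smaller metabolic and signalling groups, VEGFA, the vascular growth factor, rose from 48.5 and 51.4 CPM to 120 and 102 CPM (1.16 ± 0.13 log2, adjusted p = 0.00691), and was the 1 rise among 40 genes of glycolysis and the hypoxia response, where PDK3 fell. For this list and those that follow, the shares over all tested genes were 1.63% called higher and 1.37% lower. All 3 calls among 28 genes of iron and heme were falls, in the iron exporter SLC40A1 (32.9 and 32.5 CPM in WT, 10.8 and 10.5 CPM in AM, 20.7 and 15 CPM in 6WP), the iron-responsive aconitase ACO1 (62.8 and 63.6 CPM in WT, 35.3 and 33.9 CPM in 6WP) and the reductase STEAP3. ACO1 was also low in AM, with a mean of 39.8 CPM (6WP against AM, adjusted p = 0.202 in edgeR). STEAP3 had 17.2 and 18.1 CPM in AM and 7.88 and 8.39 CPM in 6WP. Of 45 glutathione and NRF2 genes 2 rose and 2 fell, and TXNRD1, a defining NRF2 target, went down from 509 and 443 CPM to 320 and 303 CPM while AKR1C3, which makes active androgens, went up from 21.7 and 24.3 CPM to 41.1 and 37.6 CPM. Of 49 genes of PI3K, mTOR and insulin signalling 5 rose, 4 of them held, and 1 fell (FOXO1, -0.82 log2), and 4 of the rises are displayed genes. FOXO1 had 17.8 and 19.6 CPM in WT, 10.7 and 9.57 CPM in AM and 10.9 and 10.2 CPM in 6WP. In the TGF-beta and BMP list 4 of 46 rose, 2 of them held, and 1 fell, with the inhibitor SMAD7 at 0.59 and the repressor ID4 at 0.74 log2. Both were higher still in AM. SMAD7 had 37.7 and 38.8 CPM in AM and 33.0 and 30.3 CPM in 6WP. ID4 had 90.2 and 88.5 CPM in AM and 81.5 and 68.5 CPM in 6WP. Among 53 interferon and antigen presentation genes 3 fell and ISG20, an RNA exonuclease, rose from 7.95 and 8.27 CPM to 24.4 and 17.5 CPM, with 7.88 and 8.80 CPM in AM.

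Several large functions gave 0 calls in edgeR. They were 100 chromatin regulators (median 0.00, 13 genes at an unadjusted p under 0.05 and 3 called by DESeq2), 69 genes of ribosome biogenesis (median 0.02, 13 and 1), 49 of fatty acid oxidation and peroxisomes (median 0.08, 15 and 7), 41 of NF-kB, cytokines and chemokines (median -0.14, 9 and 3), 33 of Notch and Hedgehog (median -0.10, 7 and 3), 31 immediate early genes (median -0.03, 8 and 5) and 46 proteasome subunits (median 0.00, 5 and 2). Among 480 zinc finger genes named ZNF 1 was called, ZNF778, which fell from 23.2 and 26.9 CPM to 11.9 and 11.5 CPM. These counts do not show that the genes were the same in both groups, since the spread of the 6WP libraries limits the changes that can be called.

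Cell division was the function in which the 6WP libraries differed most. All 60 tested genes of mitosis and the spindle were higher in 6WP library 1 than in library 2, and 48 of them by more than 1 log2. Their median was 0.26 log2 above the WT mean in library 1 and 1.0 below it in library 2, where all 60 were below the WT mean, and the summed level was 5551 and 4976 CPM in WT, 7515 and 7203 CPM in AM, and 6153 and 2679 CPM in 6WP. By edgeR 0 of the 60 were called, with 5 at an unadjusted p under 0.05, all lower, and 1 called by DESeq2. CDC20, the activator of the anaphase-promoting complex, had 174 and 166 CPM in WT and 194 and 62.9 CPM in 6WP, and CDC25C, the phosphatase that starts mitosis, had 23.5 and 19.1 CPM in WT and 38.3 and 9.87 CPM in 6WP. MYBL2, a transcription factor of dividing cells, had 80.6 and 77.0 CPM in WT, 161 and 173 CPM in AM, and 106 and 31.5 CPM in 6WP. These genes were chosen for their distance between the libraries after their values were seen, and for each of them the 6WP mean hides values on both sides of WT.

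DNA replication genes showed a smaller gap in the same direction, with 46 of 51 higher in library 1 and medians of -0.13 and -0.57 log2. When nothing but direction is counted, 33 of the 51 lay below the WT mean in both 6WP libraries and 4 above it. At an unadjusted p under 0.05 in edgeR 20 were lower and 1 higher, and 9 were called by DESeq2. MCM4, a subunit of the replicative helicase, was the 1 gene called by edgeR, with 434 and 388 CPM in WT, 613 and 640 CPM in AM and 285 and 213 CPM in 6WP (-0.72 ± 0.15 log2, adjusted p = 0.0464), and in CDC45, a part of that helicase that was also chosen after its values were seen, the 6WP libraries had 63.3 and 21.3 CPM around 50.4 and 44.9 CPM in WT. The 15 replication-dependent histone genes had medians of 0.20 and -0.66 log2, with 0 called, 3 at an unadjusted p under 0.05 and 0 called by DESeq2. The opposite order was seen in cytosolic ribosomal proteins, where 80 of 85 genes were higher in library 2 (medians 0.05 and 0.38, 0 called, 10 at an unadjusted p under 0.05 and 0 called by DESeq2), and their summed level was 107400 and 106600 CPM in WT, 73210 and 85450 CPM in AM, and 110200 and 141500 CPM in 6WP. Of the markers of the line, TMPRSS2, a serine protease chosen after its values were seen and standing for no list, had 91.0 and 95.7 CPM in WT, 24.5 and 32.4 CPM in AM, and 42.0 and 116 CPM in 6WP, so that library 1 stood nearer to the AM libraries and library 2 above WT.

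**Figure D5:**
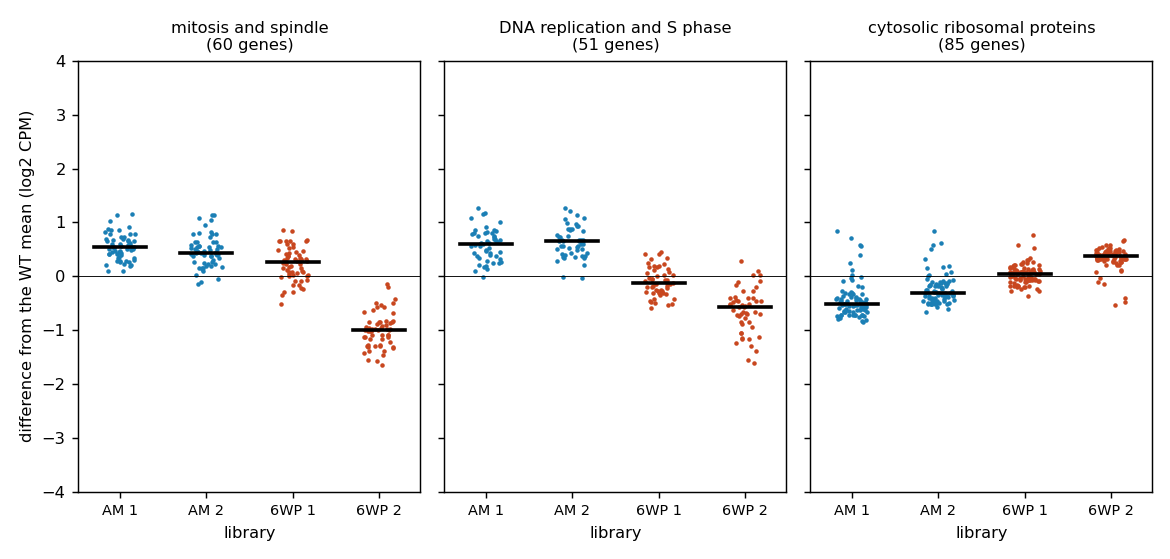
Difference from the WT mean (log2 CPM) of each tested gene of 3 functions in the AM (blue) and 6WP (red) libraries, with 1 point per gene and a black bar at the median. Mitosis genes lie around 0.26 in 6WP library 1 and around -1.0 in library 2, and ribosomal proteins around 0.05 and 0.38.

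Among called genes outside the displayed ones with a mean of at least 1 log2 CPM, those whose 6WP libraries lay farthest apart were LAMP3, CHGA, FIBIN, TARP and LHFPL4. Of these only CHGA failed the rule for held genes, because in the others the distance from WT was larger still. In all, 13 called genes were not held, 11 higher and 2 lower. LONP1, the mitochondrial matrix protease, had 100 and 111 CPM in WT, 169 and 193 CPM in AM and 318 and 183 CPM in 6WP (1.24 ± 0.23 log2, adjusted p = 0.0358), so that library 2 was at the level of AM. ESCO2, which acetylates cohesin in S phase, had 48.2 and 46.2 CPM in WT, 72.0 and 61.3 CPM in AM and 24.8 and 12.3 CPM in 6WP, and INHBB, a subunit of activin and inhibin, had 5.76 and 6.34 CPM in WT, 12.5 and 12.7 CPM in AM and 11.3 and 21.0 CPM in 6WP. LONP1 and ESCO2 were named after their values were seen. Of the 852 tested genes more than 1 log2 apart between the 6WP libraries, 559 were higher in library 1 and 293 in library 2, and 18 were called.

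Among noncoding RNAs the medians differed by kind. Over the 75 tested small nucleolar RNAs the median was -0.46 log2 (-0.50 and -0.20 in the 6WP libraries), with 0 called higher and 0 lower. Over 113 long intergenic RNAs named LINC the median was 0.21 log2 (0.19 and 0.26 in the libraries), with 1 called higher and 1 lower, and over 249 antisense RNAs it was 0.20 (0.12 and 0.25), with 4 called higher and 0 lower, a share like the 1.63% called higher over all genes. The 18 host genes of small nucleolar RNAs had a median of 0.39 (0.21 and 0.43), and 2 of them rose. SNHG8 had 125 and 132 CPM in WT, 77.6 and 86.4 CPM in AM and 203 and 232 CPM in 6WP (0.76 ± 0.12 log2, adjusted p = 0.0192), and SNHG12 had 2.59 and 2.62 CPM in WT, 2.54 and 2.38 CPM in AM and 6.29 and 6.52 CPM in 6WP (1.3 ± 0.21 log2, adjusted p = 0.0219). For both the 6WP libraries lay close together and above all others. Exons of SNHG8 overlap SNORA24 on the same strand and PRSS12 on the opposite strand. Those of SNHG12 overlap SNORA16A, SNORA44 and SNORA61 on the same strand and TRNAU1AP on the opposite strand. The counts of these host genes and of the small nucleolar RNAs inside them are therefore uncertain. Antisense RNAs share positions with genes on the other strand, so that their counts depend on the strand setting as well.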

How the data were processed

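RNA from 22Rv1 cells was sequenced in 6 libraries, 2 each for WT, AM and 6WP cells. The table that the authors deposited holds unnormalized read counts, 1 column a library. The submitters' processing notes name hg38, STAR 2.5.3a, featureCounts 1.5.3, StringTie 1.3.3, edgeR 3.22.3 and R 3.5.0, and the strand setting is not given in the sources used here. Library totals lay between 21222201 and 35311945 counts.

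From these counts, 14672 of 29804 symbols were kept by filterByExpr, scaled with TMM factors and fitted over all 6 libraries with the quasi-likelihood model of edgeR 4.0.16 in R 4.3.3 (limma 3.58.1), without covariates. All tests are two-sided. The Benjamini-Hochberg adjustment ran over every gene tested. The p-values measure the spread between these libraries. With 2 libraries a group, exact permutation reaches at best p = 0.333. CPM values are TMM scaled, and library differences use log2 CPM with a prior count of 2. The fit was tested on simulated counts.

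The 49 lists and 30 symbol families were compiled from general knowledge, and the genes shown by the study, partly read from its figures, served to set genes aside. The members and lists were chosen with earlier results of these data known. Genes named are the 15 largest held rises and the 15 largest held falls not shown in the study with a mean of at least 1 log2 CPM, the 3 largest rises and falls called in each list, the 5 called genes with the widest 6WP distance, the markers, and genes said to be chosen after their values were seen; SARS, AARS, GARS, NARS, TARS, HSPA5, HSP90B1, PARP3, SYP and SCG3 were added to account for the members of their lists. Some members of the lists are counted but not reported here by name. Positions are from GENCODE 44 (13819 genes matched, 94.2%) and promoters from RefSeq (11253 matched, 76.7%). Alternatives were other scalings, filters and samples, DESeq2 1.42.0, a replicate block, other rules for held genes and each library left out.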

Additional observations from a re-analysis of the deposited data

How the results depend on the processing

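With 2 libraries a group, the number of genes called depended on how the spread was estimated. Against 440 genes called, 239 higher, 201 lower and 427 held, the Wald test of DESeq2 gave 1124, 532, 592 and 897, the filter of 1 count in total gave 894, 467, 427 and 713, and a fit to only the WT and 6WP libraries gave 96, 60, 36 and 96. Leaving out each library in turn gave between 0 and 3870 calls, 0 and 1852 higher, 0 and 2082 lower, and between 0 and 102 held genes where both 6WP libraries were kept; a held count needs both 6WP libraries and could not be had without either. The 0 calls arose without a WT library, where 1456 (first left out) and 1900 (second) genes had an unadjusted p under 0.05 in edgeR. The cause was not tested. DESeq2's size factors (478), upper quartile scaling (427), library size alone (378) and at least 10 counts in every library (411) stayed within 1.5 times the 440. The replicate block gave 393 calls, 343 of them shared with the 440. Same-numbered libraries had correlations of their deviations of 0.087, 0.040 and -0.021, so the numbers were not taken to pair them. The 440 genes were all called again in both fits that leave out one 6WP library, but there the lone 6WP library is assumed to vary like the other groups, and the many calls of these fits made that close to certain, so it does not bear on held genes. Of the 440, 432 had a smaller library difference of at least 0.5 of the larger. None of the 110 called genes taken by the naming rule turned direction under these alternatives.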

Other observations

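The median change also differed by chromosome, in values that belong to no function list. Over all tested genes 1.63% were called higher and 1.37% lower. Over 1022 tested genes on chromosome 19 the median was 0.14 log2, with 0.15 and 0.13 in the 6WP libraries. There 17 genes were called higher, a share like that over all genes, and 3 lower. Over 236 genes on chromosome 13 the median was -0.13 (-0.10 and -0.12), with 2 higher and 7 lower. On chromosome 12, which holds SOX5, ABCC9 and ITGA7, 26 of 742 genes were called lower and 11 higher. AM cells, which share the WT libraries in the comparison, had medians of 0.08 on chromosome 19 and -0.13 on chromosome 13.

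The next largest rises held in both 6WP libraries after the 15 described included PTN, a heparin-binding growth factor, with 9.06 and 8.64 CPM in WT, 7.41 and 12.7 CPM in AM and 20.1 and 22.9 CPM in 6WP, ASS1, the enzyme that makes argininosuccinate, with 4.20 and 3.58 CPM in WT, 3.96 and 4.36 CPM in AM and 9.26 and 9.94 CPM in 6WP, and EFHD1, a mitochondrial calcium sensor, with 13.2 and 14.4 CPM in WT, 10.4 and 11.2 CPM in AM and 36.6 and 30.0 CPM in 6WP. The next largest falls included GFRA1, a receptor of glial cell line-derived neurotrophic factor, with 8.93 and 8.73 CPM in WT, 0.646 and 0.854 CPM in AM and 3.15 and 3.59 CPM in 6WP, and EMP2, a tetraspan membrane protein, with 25.8 and 24.7 CPM in WT, 22.3 and 26.3 CPM in AM and 11.9 and 9.55 CPM in 6WP. These 5 genes were chosen after their values were seen.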
